A study of Mus musculus with 4 samples.

Results

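A set of 40 genes of the cell division cycle was followed across the cell classes of mouse skeletal muscle, in single-cell RNA libraries of the quadriceps and the diaphragm. The members were given by name and matched by symbol to the gene lists of the count matrices, where all 40 were found among 32285 genes. They fall into 10 S phase genes (Mcm2 to Mcm7, Pcna, Rrm1, Rrm2 and Tyms), 5 other replication genes (Tk1, Gins2, Cdc6, Cdc45 and Pclaf) and 25 mitotic genes (Top2a, Mki67, Birc5, Ube2c, Cdk1, Ccna2, Ccnb1, Ccnb2, Cdc20, Prc1, Cenpa, Cenpe, Cenpf, Nusap1, Tpx2, Aurka, Aurkb, Bub1, Bub1b, Kif11, Kif23, Plk1, Hmmr, Spc25 and Racgap1). The 4 libraries hold mononuclear cells of mice aged 14 weeks, 1 library each from the quadriceps and the diaphragm of WT mice and of mdx5cv mice. Where 4 values follow each other below, they are for quadriceps and diaphragm of WT and then for quadriceps and diaphragm of mdx5cv. The mdx5cv mouse carries a germline mutation of the dystrophin gene and is a model of Duchenne muscular dystrophy, so that no group isolates the mutation in 1 cell type. The suspensions of all 4 groups had been frozen and thawed before loading, so every value is from cells that survived this. With 1 library per group, and no number of mice stated for any, a difference between groups cannot be told apart from a difference between libraries. No p-value is given, and intervals cover counting error only.

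A dividing cell first copies its DNA and then separates the copies. The Mcm2 to Mcm7 proteins form the ring that unwinds DNA, Pcna is the clamp that holds the polymerase on it, and Rrm1, Rrm2 and Tyms make its building blocks. Genes of the second group act later: Cdk1 with its cyclins Ccna2, Ccnb1 and Ccnb2 drives entry into mitosis, Top2a untangles chromosomes, the Cenp genes belong to the kinetochore, the Aurka, Aurkb and Plk1 kinases and the Bub1 and Bub1b checkpoint proteins steer chromosome separation, and Ube2c and Cdc20 help degrade the cyclins. In healthy adult muscle most resident cells rest, whereas in dystrophic muscle repeated fibre damage draws in and activates stem cells, fibro/adipogenic progenitors (FAPs, the stromal cells that make matrix) and leukocytes.

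After filtering, 4911 cells of WT quadriceps, 7516 of WT diaphragm, 8334 of mdx5cv quadriceps and 7402 of mdx5cv diaphragm remained. A cell's depth is its count of unique molecular identifiers (UMIs, each 1 captured RNA molecule). The median depth was lowest in WT quadriceps, at 2055 UMIs, and lay between 4355.5 and 5328.5 in the other 3 libraries. Any pair of libraries shared 5 to 17 cell barcodes, against 5.35 to 9.22 that random draws from the barcode list would share. Free RNA differed as well: in barcodes of 10 to 100 UMIs, which hold no cell, the module took 3.60 of every 10000 UMIs in WT quadriceps, 3.12 in WT diaphragm, 9.36 in mdx5cv quadriceps and 5.56 in mdx5cv diaphragm.

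Cells with at least 5 UMIs of the module made up 1.10% of all cells in WT quadriceps (54 cells, exact 95% binomial interval 0.827 to 1.43%) and 1.33% in WT diaphragm (100 cells, 1.08 to 1.62%). They made up 18.8% in mdx5cv quadriceps (1564 cells, 17.9 to 19.6%) and 9.11% in mdx5cv diaphragm (674 cells, 8.46 to 9.78%). The libraries thus separated by genotype, and the dystrophic quadriceps lay above the dystrophic diaphragm with no overlap of intervals. The makeup behind these totals differed. Macrophage-, monocyte- and dendritic-like cells held 24 of the 54 such cells in WT quadriceps and 19 of the 100 in WT diaphragm. They held 994 of the 1564 in mdx5cv quadriceps and 334 of the 674 in mdx5cv diaphragm. Shares were therefore read within classes, which were gated by markers and are named "-like" for that reason.

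FAP-like cells (Pdgfra, Dcn, Lum, Dpt, Col1a1, Col1a2, Col3a1, Serpinf1) rarely carried the module in WT muscle. In WT quadriceps 4 of 971 reached 5 UMIs (0.412%, 0.112 to 1.05%), and in WT diaphragm 52 of 6200 (0.839%, 0.627 to 1.10%). In mdx5cv quadriceps 158 of 1523 did (10.4%, 8.89 to 12%), and in mdx5cv diaphragm 104 of 2993 (3.47%, 2.85 to 4.19%). Both dystrophic libraries were above both WT libraries, and quadriceps exceeded diaphragm only in the dystrophic pair. The ratio of shares, mdx5cv to WT, was 25.2 in quadriceps (95% interval 9.64 to 93.6) and 4.14 in diaphragm (2.94 to 5.90). Its size depends on the threshold: counted from 3 module UMIs it was 6.85 (4.65 to 10.5) and 1.83 (1.58 to 2.12), and from 2 after thinning to 2000 UMIs per cell 2.07 (1.47 to 2.98) and 1.28 (1.06 to 1.54).

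Muscle stem cell-like cells (Pax7, Myf5, Myod1, Myog, Des, Chodl, Cdh15, Mymk; written MuSC-like) had larger ratios of shares than FAP-like cells, with overlapping intervals. One of 244 reached 5 module UMIs in WT quadriceps and 2 of 91 in WT diaphragm. In the dystrophic libraries 62 of 243 (25.5%, 20.2 to 31.5%) and 49 of 208 (23.6%, 18.0 to 29.9%) did, in quadriceps and diaphragm. The 2 dystrophic muscles overlapped here, unlike in the FAP-like cells. Against so few WT cells the ratios are loose, 62.3 in quadriceps (10.8 to 2498) and 10.7 in diaphragm (2.81 to 91.0). From 4000 to 8000 UMIs 1 of 14 and 2 of 5 WT cells reached 5 module UMIs in quadriceps and diaphragm. In mdx5cv 4 of 76 (5.26%) and 6 of 83 (7.23%) did. Each WT library had 1 MuSC-like cell with 8000 UMIs or more, against 97 and 74 in mdx5cv.

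Macrophage-like cells (C1qa, C1qb, C1qc, Adgre1, Csf1r, Mrc1, Ms4a7, Fcgr1) carried the module in WT muscle too. The share was 7 of 172 (4.07%, 1.65 to 8.21%) in WT quadriceps and 13 of 136 (9.56%, 5.19 to 15.8%) in WT diaphragm. It was 705 of 3055 (23.1%, 21.6 to 24.6%) in mdx5cv quadriceps and 182 of 1263 (14.4%, 12.5 to 16.5%) in mdx5cv diaphragm. The quadriceps ratio was 5.67 (2.74 to 14.2), while the diaphragm ratio, 1.51, had an interval of 0.860 to 2.89 that includes no change. Depth differed: 2 of 172 cells of WT quadriceps had 8000 UMIs or more, against 974 of 3055 in mdx5cv. From 4000 to 8000 UMIs the shares were 14.7% (5 of 34) in WT and 13.8% in mdx5cv quadriceps. In diaphragm they were 12.7% (7 of 55) and 8.17%. From 2000 to 4000 UMIs mdx5cv was higher, at 6.10% against 1 of 105 in quadriceps and 4.61% against 1 of 67 in diaphragm. After thinning to 2000 UMIs the quadriceps ratio was 2.76 (1.06 to 10.2) from 5 module UMIs and 1.46 from 2. Dendritic-like cells (among their markers Flt3, Cd209a, Xcr1) held high shares in every library: 15 of 71 (21.1%), 6 of 36 (16.7%), 162 of 540 (30%) and 80 of 321 (24.9%). The intervals of the genotypes overlap in each muscle. Monocyte-like cells reached 127 of 1047 (12.1%) and 72 of 549 (13.1%) in the dystrophic quadriceps and diaphragm; only 30 and 10 such cells were found in the WT libraries.

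Over all depths endothelial-like cells were at the other end, although they are the commonest class of WT quadriceps. Of 2573 such cells 2 reached 5 module UMIs there (0.0777%), 0 of 67 in WT diaphragm, which allows a share of up to 4.48% (3 cells of 67; the exact 95% interval reaches 5.36%), 6 of 420 in mdx5cv quadriceps (1.43%) and 7 of 352 in mdx5cv diaphragm (1.99%). Their depth was low, with medians of 1648 to 2295.5 UMIs. From 4000 to 8000 UMIs 3 of 46 (6.52%, 1.37 to 17.9%) reached 5 module UMIs in mdx5cv quadriceps. In mdx5cv diaphragm 6 of 49 (12.2%, 4.63 to 24.8%) did, and 1 of 99 and 0 of 6 in WT quadriceps and diaphragm. The dystrophic shares in that range were above those of FAP-like cells, 2.68% and 1.18%. Of the endothelial-like cells that did reach 5 UMIs, 6 of 7 in mdx5cv diaphragm had no UMI of any mitotic member. Mki67 had 0 UMIs in 3 of the 4 endothelial-like sums and 4 in mdx5cv quadriceps. Among lymphocytes, T-like cells carried the module in 7 of 127 cells (5.51%) of WT diaphragm, 16 of 168 (9.52%) of mdx5cv quadriceps and 13 of 283 (4.59%) of mdx5cv diaphragm, and B-like cells in 2 of 219 (0.913%) and 21 of 469 (4.48%) of the WT and mdx5cv diaphragm. NK-like cells numbered 38 in mdx5cv quadriceps, of which 9 carried it.

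**Figure D1:**
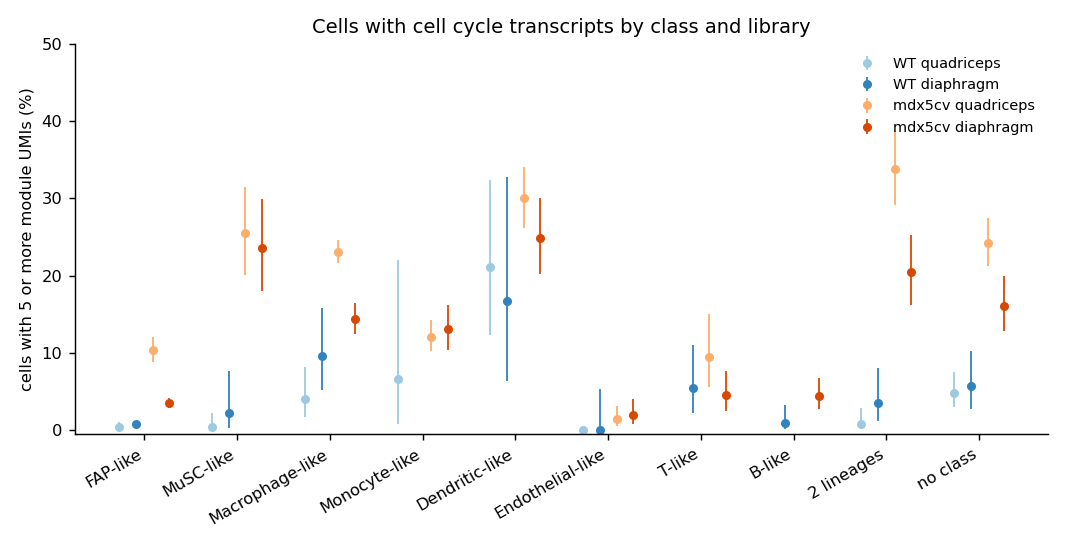
Percentage of cells with 5 or more UMIs of the 40 genes (vertical axis) by group of cells (horizontal axis), 1 point per library with its exact 95% binomial interval. The groups are FAP-, MuSC-, macrophage-, monocyte-, dendritic-, endothelial-, T- and B-like cells, barcodes of 2 lineages and cells of no class. A point is drawn where the library held at least 20 such cells, and the other classes are not drawn. FAP-like and MuSC-like cells separate by genotype, dendritic-like cells lie at 16.7% or more in every library, and endothelial-like cells stay under 2% in all 4.

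Depth and doublets move with these shares. Cells with 5 or more module UMIs were deeper than the rest of their class: in FAP-like cells of mdx5cv quadriceps their median was 17072.5 UMIs against 4821 in the others, and 140 of the 158 had 8000 UMIs or more. In that deepest range the share was 32.2% (27.8 to 36.8%) in mdx5cv quadriceps and 12.8% (10.4 to 15.7%) in mdx5cv diaphragm, against 7.80% (5.40 to 10.8%) in WT diaphragm. The range has no upper limit, and depth was not matched within it. WT quadriceps had 11 FAP-like cells that deep, 1 of them with the module. From 4000 to 8000 UMIs the shares were low, and mdx5cv lay above WT in both muscles. For quadriceps they were 0.595% (0.0722 to 2.13%) in WT and 2.68% (1.54 to 4.32%) in mdx5cv. For diaphragm they were 0.524% (0.316 to 0.818%) in WT and 1.18% (0.660 to 1.93%) in mdx5cv. The intervals of the genotypes overlapped, which does not show equal shares, and the ratio in this range was not tested. After every cell was thinned to 2000 UMIs, leaving out 115 to 286 shallower FAP-like cells per library, 0.351%, 0.254%, 4.12% and 0.711% kept 5 module UMIs in the 4 libraries. Thinning narrowed the diaphragm ratio to 2.80 (1.36 to 5.89) and the quadriceps ratio to 11.7. The quadriceps ratio is loose, as only 4 WT cells had 5 module UMIs even before thinning. In MuSC-like cells the same thinning left 25 of 235 and 27 of 205 cells in the dystrophic quadriceps and diaphragm, 0 of 146 in WT quadriceps, which allows up to 2.05%, and 1 of 62 in WT diaphragm.

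Barcodes that passed the gates of 2 lineages, which can be doublets, were set apart from every class. They carried the module often in dystrophic muscle, 33.9% of 387 in quadriceps and 20.5% of 322 in diaphragm, and seldom in WT, 0.787% of 254 and 3.52% of 142. Of those that joined FAP and myeloid markers, 72 of 196 in mdx5cv quadriceps and 38 of 147 in mdx5cv diaphragm reached 5 UMIs. Below the gate, traces of macrophage RNA moved with the module too. The 8 macrophage markers took 5.14 of 10000 UMIs in the 158 FAP-like cells of mdx5cv quadriceps with the module and 0.867 in those with at most 1 module UMI, and 44 of the 158 held 3 or more of these markers. In diaphragm the 2 levels were 1.72 and 0.434. Among FAP-like cells with no UMI of any macrophage marker, which are also shallower, 72 of 1123 (6.41%) carried the module in mdx5cv quadriceps and 69 of 2553 (2.70%) in mdx5cv diaphragm, against 4 of 949 (0.421%) and 49 of 6099 (0.803%) in WT. The ratios were then 15.2 and 3.36. Most FAP-like cells of every library held a UMI of some marker on the 4 myeloid lists (macrophage, monocyte, dendritic, neutrophil), and 411, 2186, 369 and 811 cells held none, with median depths of 3164 to 4200 UMIs. Of these 0, 13, 5 and 9 carried the module, or 0% (exact interval up to 0.894%), 0.595% (0.317 to 1.01%), 1.36% (0.441 to 3.13%) and 1.11% (0.509 to 2.10%), and in that subset the exact intervals of the genotypes overlap in both muscles. Removing the cells in the highest 6% of doublet scores of each library gave 21.3 and 3.65.

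Gene by gene, the dystrophic quadriceps set itself apart in the FAP-like sums. A gene was called higher or lower when its level, in UMIs per 1000000 UMIs of the class (CPM), differed at least 1.5-fold and the counting interval of the ratio excluded 1; the rule was applied to genes with 10 or more UMIs in the pair. In quadriceps 37 of the 40 members were called higher in mdx5cv and 0 lower, against 18% of all 13862 genes called higher and 14.6% lower. All 25 mitotic members, 8 of the 10 S phase members and 4 of the 5 other replication members were among them. The median log2 ratio of the 40 was 3.31, against 0.06 over all genes, with 5 members that had 0 UMIs in WT taken at the ratio to a floor of 3 UMIs.

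In diaphragm 14 of the 40 were called higher and 0 lower, against 14.7% and 11.8% of 15232 genes. These were 8 mitotic, 3 S phase and 3 other replication members, and the median log2 ratio of the 40 was 0.45 against 0.07 over all genes. These counts changed with the handling of depth and doublets, and the cause was not tested. Thinned to 2000 UMIs per cell, which leaves fewer UMIs, 21 members were called higher in quadriceps and 6 in diaphragm. In diaphragm 26 were called with barcodes of 2 lineages kept and 7 with the highest doublet scores removed. The share of all genes called was not counted under these settings. The WT libraries themselves differed: the mitotic members summed to 27.2 and 69.7 CPM in WT quadriceps and diaphragm, against 465 and 98.8 CPM in the dystrophic ones. A few cells weigh heavily in such sums. Of the 97 mitotic UMIs in WT quadriceps FAP-like cells, 35 came from 1 cell, and of the 2087 in WT diaphragm 241 came from 1 cell. The counting intervals do not include this spread between cells.

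Mki67, the classical proliferation antigen, measured 0.841 CPM in WT quadriceps (3 UMIs), 3.48 in WT diaphragm, 18.9 in mdx5cv quadriceps and 4.44 in mdx5cv diaphragm. Mki67 was thus high in 1 library, with a ratio of 22.5 (7.60 to 110) in quadriceps and 1.28 (0.943 to 1.73) in diaphragm. Top2a gave 0 UMIs in the 971 WT quadriceps cells, which allows up to 0.841 CPM, and 6.25 CPM in WT diaphragm, 44.9 in mdx5cv quadriceps and 10.2 in mdx5cv diaphragm. It was at least 53.4-fold higher in dystrophic than in WT quadriceps and 1.64-fold higher in diaphragm (1.33 to 2.02). Cdk1, the mitotic kinase, followed the same order of libraries at 1.12, 3.91, 28.5 and 5.50 CPM. Its ratios were 25.4 (9.83 to 93.9) and 1.41 (1.06 to 1.85), the diaphragm value being under 1.5. Birc5, a subunit of the chromosomal passenger complex, lay at 0.561, 4.78, 38.0 and 7.72, and Cenpa, the centromeric histone, at 4.21, 6.25, 37.4 and 9.16. Ube2c, the ubiquitin-conjugating enzyme of the anaphase-promoting complex, lay at 0.841, 6.98, 36.1 and 8.50. Ccnb2, a mitotic B-type cyclin, had ratios of 11.5 (5.99 to 25.4) and 1.31 (0.973 to 1.77), and Ccna2, the cyclin of S phase and G2, 39.96 and 2.30 (1.63 to 3.26). Racgap1, needed for cytokinesis, had 10.2 (5.09 to 23.9) and 2.12 (1.52 to 2.98). Prc1 and Kif23, which build the central spindle, and Cenpf, a kinetochore protein, were called higher in quadriceps at 13.1, 43.9 and 6.85 and not in diaphragm at 1.21, 1.19 and 1.19. For each of these mitotic genes the dystrophic quadriceps stood above the other 3 libraries, which were closer to each other than to it in CPM.

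Replication members split into those with a baseline and those without. Pcna, the most abundant member, measured 60.3 CPM in WT quadriceps, 58.9 in WT diaphragm, 89.5 in mdx5cv quadriceps and 53.6 in mdx5cv diaphragm. Its ratios of 1.48 (1.28 to 1.73) and 0.910 (0.840 to 0.985) were under the 1.5-fold limit in both muscles, as were those of Mcm4 (17.1, 13.5, 17.6 and 13.8 CPM). Rrm1 (19.6, 18.3, 31.0 and 19.8 CPM) was called higher in quadriceps at 1.58 (1.22 to 2.07), but its log2 ratio there, 0.66, was -0.17 after thinning. Mcm6, Mcm7 and Tyms, the thymidylate synthase, were in between, called higher in quadriceps at 1.73, 1.73 and 2.41 and not in diaphragm at 1.21, 1.49 and 1.32. Mcm3 and Mcm5, subunits of the same helicase ring, had a low level in WT and were called higher in both muscles. Mcm3 lay at 2.80, 4.41, 18.9 and 10.8 CPM, with ratios of 6.76 (3.60 to 14.3) and 2.44 (1.95 to 3.07), and Mcm5 had ratios of 13.4 and 2.47. Pclaf, a Pcna-binding protein of replicating cells, had the highest diaphragm ratio of the 40, at 3.35 (2.65 to 4.26), with 2.80, 3.61, 46.1 and 12.1 CPM. Tk1, the thymidine kinase of S phase, rested on 1 UMI in WT quadriceps and had a diaphragm ratio of 1.83 (1.22 to 2.74), and Gins2, a subunit of the replicative helicase complex, had 3.95 (1.83 to 10.1) and 1.86 (1.29 to 2.67). In the diaphragm the highest ratios after Pclaf were those of Mcm2 (2.48), Mcm5, Mcm3 and the mitotic gene Ccna2, while Ube2c had 1.22 (0.981 to 1.51). As groups the S phase and mitotic members were close there, with median log2 ratios of 0.44 and 0.39 and 3 of 10 and 8 of 25 called. Cdc6, the origin licensing factor, went against the others in quadriceps with 5.89 CPM in WT and 4.55 in mdx5cv, a difference within counting error (0.456 to 1.36).

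**Figure D2:**
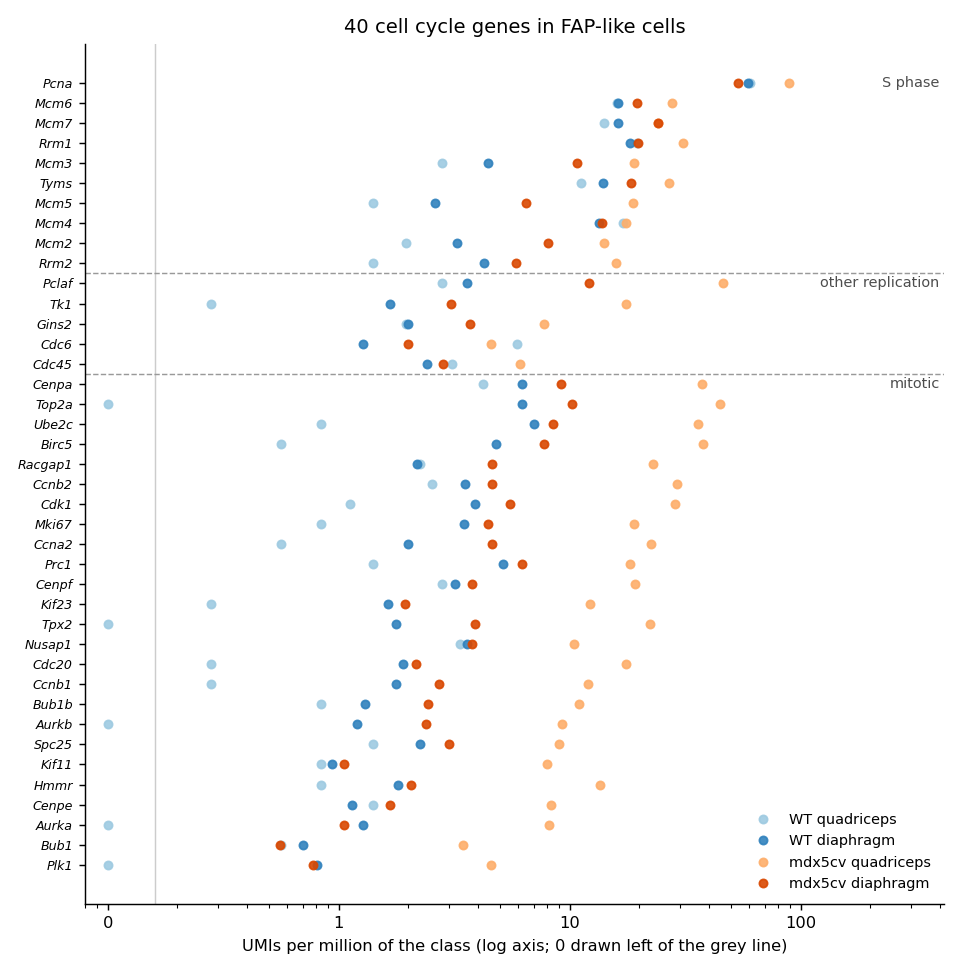
Level of each of the 40 genes in the summed FAP-like cells of each library, in CPM on a log axis, ordered by total UMIs within the 3 groups; values of 0 are drawn at the left edge. The mdx5cv quadriceps points lie furthest right for every mitotic gene, while Pcna and Mcm4 lie within a factor of 2 across libraries.

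The S phase and mitotic members differed in how they spread over cells. In FAP-like cells of WT diaphragm 46.6% of cells held an S phase UMI and 6.21% a mitotic UMI. The 52 cells with 5 or more module UMIs, chosen on these same counts, held 81.9% of the class's mitotic UMIs but 10.7% of its S phase UMIs. In mdx5cv quadriceps the 158 cells held 95.9% and 66.5%. FAP-like cells with under 5 module UMIs had 139, 138, 129 and 136 CPM of S phase members, values that the limit of 5 UMIs itself caps. Under the same cap their mitotic level was 14.7, 12.8, 26.2 and 16.3 CPM, highest in mdx5cv quadriceps, where free module RNA was also highest; the part of free RNA was not tested. Endothelial-like cells, in which few cells reached 5 module UMIs, also held 204 to 286 CPM of S phase members. Over the 4 libraries 40.1 to 55.3% of FAP-like cells held an S phase UMI and 5.25 to 20.3% a mitotic one.

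**Figure D3:**
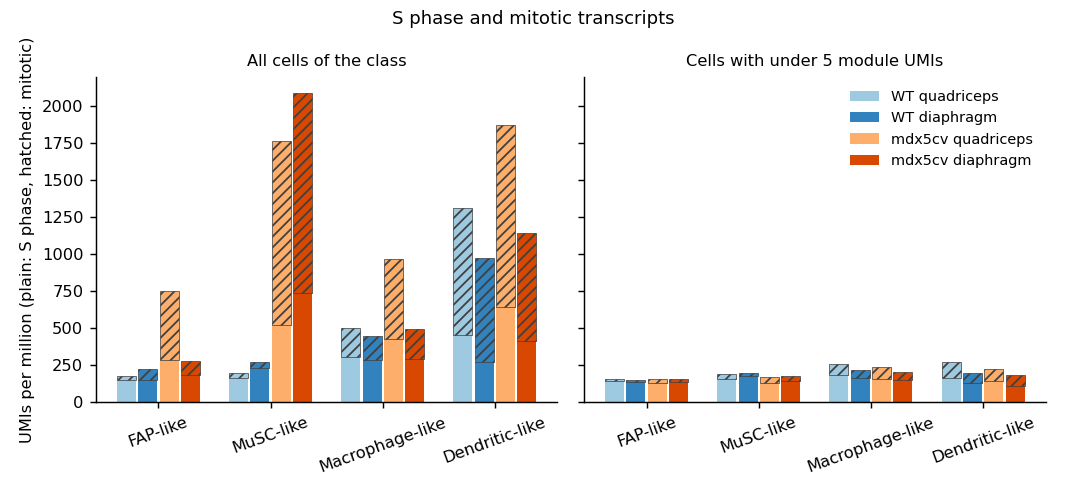
CPM of the 10 S phase members (plain bars) and the 25 mitotic members (hatched, stacked on top) in 4 classes and 4 libraries, for all cells (left) and for cells with under 5 module UMIs (right). S phase members make up most of each bar on the right, where the limit of 5 UMIs on the same genes caps the height, so that likeness between libraries there is in part set by the choice of cells.

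Among the cells with 5 or more module UMIs, the S phase part of S phase and mitotic UMIs was 29.8% (28.7 to 30.9%) in FAP-like cells of mdx5cv quadriceps and 40% (38.1 to 42.0%) in those of mdx5cv diaphragm. It was 22.1% (20.4 to 23.9%) in WT diaphragm. Macrophage-like cells had 39.5% (38.8 to 40.3%) in mdx5cv quadriceps and 51.4% (49.6 to 53.2%) in mdx5cv diaphragm, and MuSC-like cells 27.3% (25.9 to 28.8%) and 33.2% (31.6 to 34.8%). In these 3 classes the diaphragm had the larger S phase part. Dendritic-like cells, with 32.0% (30.9 to 33.1%) and 33.3% (31.5 to 35.2%), and monocyte-like cells, with 38.2% (36.3 to 40.1%) and 41.3% (38.4 to 44.2%), had overlapping intervals. The order was the opposite in T-like cells, at 45.5% (41.4 to 49.6%) in quadriceps and 27.3% (23.4 to 31.6%) in diaphragm from 16 and 13 cells, and in cells that passed no gate, at 41.3% and 34.3%. Cells near the threshold carry part of this: 57 of the 158 FAP-like cells in mdx5cv quadriceps and 62 of the 104 in mdx5cv diaphragm had 5 to 9 module UMIs, and 24 and 37 cells had no mitotic UMI at all. Just below the threshold, 362 and 682 cells had 2 to 4 module UMIs. Cells with 20 or more numbered 73 in mdx5cv quadriceps, 25 in mdx5cv diaphragm, 16 in WT diaphragm and 2 in WT quadriceps.

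Per cell, both kinds of state were present. Of the 93 FAP-like cells of mdx5cv quadriceps with at least 10 S phase and mitotic UMIs together, 18 (19.4%) were over 75% S phase, 50 (53.8%) were under 25% and 25 lay between. Of 39 such cells in mdx5cv diaphragm, 14 (35.9%) were over 75% S phase and 12 (30.8%) under 25%. The 341 macrophage-like cells of mdx5cv quadriceps divided into 139 mostly S phase (40.8%), 130 mostly mitotic (38.1%) and 72 between. Of the MuSC-like cells 17 of 38 in mdx5cv quadriceps and 14 of 29 in mdx5cv diaphragm lay between. The median S phase part of such cells in mdx5cv quadriceps and diaphragm was 24.1% and 64.7% in FAP-like cells. It was 60.0% and 72.7% in macrophage-like and 35.2% and 49.1% in MuSC-like cells. The order was the opposite in dendritic-like cells (42.9% and 35.0%), monocyte-like cells (51.9% and 37.4%) and cells that passed no gate (48.7% and 23.7%).

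**Figure D4:**
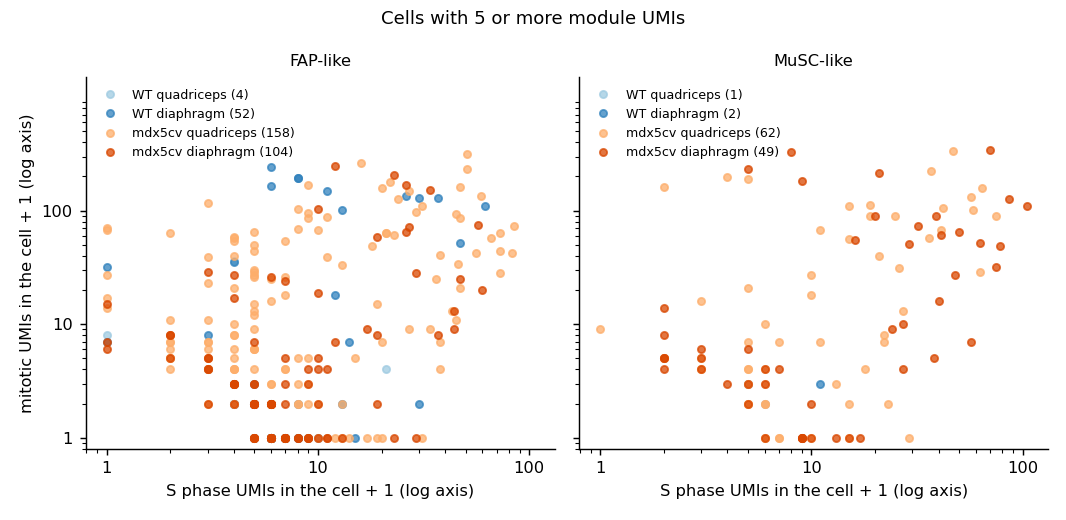
S phase UMIs (horizontal) against mitotic UMIs (vertical), each plus 1 on log axes, for every FAP-like (left) and MuSC-like (right) cell with 5 or more module UMIs, 1 point per cell. Cells along the bottom have S phase UMIs and no mitotic UMI, as 37 of the 104 mdx5cv diaphragm FAP-like cells do.

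The promoters of these groups carry different letters, which is shown here because the S phase and mitotic UMIs were spread differently over cells. Replication genes are classical targets of E2F factors, and many mitotic genes carry a cell cycle genes homology region (CHR) near the start site, often with CCAAT boxes that bind NF-Y. RefSeq promoters of build GRCm38.p6, from 250 bases before to 50 after the start, matched 35 of the 40 members. The letters TTTGAA, the core of the CHR, were searched on both strands and found in 17 of 22 mitotic promoters (77.3%), in 1 of 9 S phase promoters (11.1%) and in 18.1% of the promoters of all 27025 genes. The letters TTTNNCGC, an E2F-like pattern, were found in 2 of 22 mitotic promoters (9.09%), 5 of 9 S phase promoters (55.6%) and 5.27% of all. CCAAT occurred in 20 of 22 mitotic and 8 of 9 S phase promoters against 37.9% of all. TTTGAA and the E2F-like letters thus differed between the groups, whereas CCAAT was common to both. A match is a run of letters, not a bound site, and no binding was measured here. A pair of promoters of each kind follows, 5′ to 3′ in the direction of the gene, with matches on either strand in capitals. Mcm3 (chr1:20820263-20820562, minus strand) and Mcm6 (chr1:128359656-128359955, minus strand) hold the E2F-like letters and CCAAT. Ube2c (chr2:164769679-164769978, plus strand) and Ccnb2 (chr9:70421505-70421804, minus strand) hold TTTGAA and CCAAT.
Mcm3: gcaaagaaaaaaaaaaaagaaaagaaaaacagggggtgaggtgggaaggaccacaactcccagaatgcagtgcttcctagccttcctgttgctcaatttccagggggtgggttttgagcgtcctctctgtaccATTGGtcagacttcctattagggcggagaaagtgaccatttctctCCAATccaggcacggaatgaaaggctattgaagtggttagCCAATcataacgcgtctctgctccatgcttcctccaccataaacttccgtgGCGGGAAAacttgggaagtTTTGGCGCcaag
Mcm6: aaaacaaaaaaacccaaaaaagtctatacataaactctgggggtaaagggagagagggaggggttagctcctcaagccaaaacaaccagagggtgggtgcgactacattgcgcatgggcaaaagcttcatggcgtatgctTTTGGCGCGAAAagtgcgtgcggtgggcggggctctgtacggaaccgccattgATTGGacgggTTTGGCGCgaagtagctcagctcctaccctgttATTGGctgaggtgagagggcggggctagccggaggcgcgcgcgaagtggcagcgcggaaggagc
Ube2c: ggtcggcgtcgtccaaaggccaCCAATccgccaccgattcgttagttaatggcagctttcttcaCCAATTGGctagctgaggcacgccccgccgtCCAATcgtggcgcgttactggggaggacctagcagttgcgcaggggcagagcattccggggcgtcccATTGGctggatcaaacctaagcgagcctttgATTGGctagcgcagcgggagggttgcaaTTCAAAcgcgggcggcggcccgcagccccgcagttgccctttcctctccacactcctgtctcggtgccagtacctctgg
Ccnb2: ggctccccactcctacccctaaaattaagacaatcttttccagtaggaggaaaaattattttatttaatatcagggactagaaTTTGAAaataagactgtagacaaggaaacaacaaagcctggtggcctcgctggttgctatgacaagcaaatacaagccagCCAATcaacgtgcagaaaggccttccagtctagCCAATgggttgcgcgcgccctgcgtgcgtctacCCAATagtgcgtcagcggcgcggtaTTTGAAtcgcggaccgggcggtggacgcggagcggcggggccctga
In Mcm6 the E2F-like letters start at positions -110 and -47 on the gene's strand, counted from the start site, and a match on the other strand overlaps the first. In Ccnb2 the CHR core starts at -167 and at +5, with 3 CCAAT boxes at -87, -54 and -21. In Ube2c it reads TTCAAA, being on the other strand, at -29, behind 6 CCAAT boxes, of which a pair overlaps.

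In MuSC-like cells the 2 muscles were close. In quadriceps 37 of 40 members were called higher in mdx5cv and 0 lower, against 21.3% and 10.4% of 11051 genes. In diaphragm 31 of the 39 members with enough UMIs were called higher and 0 lower, against 13.7% and 6.40% of 9720 genes. The WT sums were thin: the 40 genes together gave 117 UMIs in WT quadriceps and 63 in WT diaphragm, and 17 and 22 members had 0, so that their ratios are bounds. After thinning 17 members were called in quadriceps and 7 in diaphragm. Top2a had 0 UMIs in both WT sums and 111 and 133 CPM in the dystrophic quadriceps and diaphragm, at least 21.2-fold and 10.2-fold higher. Ube2c, also at 0 in both WT sums, reached 133 and 162 CPM. Mki67 had 0 and 2 UMIs in the WT sums and 46.2 and 56.6 CPM in the dystrophic ones. Among replication genes, Rrm2, a subunit of ribonucleotide reductase, went from 5.24 to 76.1 CPM in quadriceps (ratio 14.5, 4.88 to 71.2) and from 13 to 108 in diaphragm (8.30, 2.79 to 40.6). For Pcna, at the smaller end of the range as in FAP-like cells, the ratios were 1.70 (1.20 to 2.46) and 1.84 (1.14 to 3.16). Mcm4 was not called in either muscle, with ratios of 1.34 and 1.07.

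Dystrophic MuSC-like cells with a UMI of Myod1, the factor of activated myogenic cells, carried the module more often than those without. In quadriceps 49 of 119 (41.2%, 32.2 to 50.6%) did against 13 of 124 (10.5%, 5.70 to 17.3%), and in diaphragm 43 of 130 (33.1%, 25.1 to 41.9%) against 6 of 78 (7.69%, 2.88 to 16%). Cells with Myod1 were also deeper, with medians of 9780 against 5189.5 UMIs in quadriceps and 6927.5 against 5168 in diaphragm, and the part of depth was not tested. In quadriceps 22.1% of the cells with a UMI of Pax7, the stem cell factor, and 33.8% of those without carried the module; in diaphragm it was 23.7% against 23.4%. The intervals of each of those Pax7 pairs overlap, and the difference between the splits was not tested. The split by Myog, the factor of differentiating myogenic cells, gave 49.0% (34.4 to 63.7%) with and 19.6% (14.2 to 25.9%) without in quadriceps and 34.1% and 21.0% in diaphragm. By Myf5, another myogenic factor, it was 19.9% with and 34.8% without in quadriceps and 19.8% and 28.7% in diaphragm. Depth differed in these splits too. Medians with and without Myog were 13321 and 5344.5 UMIs in quadriceps and 9057 and 5575 in diaphragm. In quadriceps they were 5599 and 9630 for Pax7 and 5414 and 9067.5 for Myf5, and in diaphragm 6032 and 5929, and 6032 and 5940. These genes are also markers of the MuSC-like gate, and the part of depth was not tested.

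In macrophage-like cells of quadriceps 17 of the 40 members were called higher in mdx5cv and 0 lower, against 9.96% and 8.28% of 13171 genes. Of these 16 were mitotic and 1, Mcm6, was an S phase gene, and after thinning 4 were called. In diaphragm 1 of 39 was called higher and 1 lower, against 12.2% and 6.74% of 11833 genes. The one called higher was Top2a, at 6.54 CPM in WT and 23.9 in mdx5cv, and the one called lower was Birc5, at 27.8 and 14.8. The 17 Birc5 UMIs of WT diaphragm came from 2 cells, and after thinning its log2 ratio was -0.07 and 0 members were called higher. Single cells weigh heavily in these sums too: 1 cell held 44 of the 107 mitotic UMIs in WT quadriceps and 1 cell 52 of the 100 in WT diaphragm. The WT sums rest on 301 module UMIs in quadriceps and 292 in diaphragm. Pcna was present in both genotypes at a level above that of FAP-like cells, 128 and 119 CPM in WT quadriceps and diaphragm and 176 and 123 in the mdx5cv libraries. Ube2c had 0 UMIs in WT quadriceps macrophage-like cells, 4.90 CPM in WT diaphragm, 52.3 in mdx5cv quadriceps and 10.8 in mdx5cv diaphragm. Ube2c was at least 9.37-fold higher in the dystrophic quadriceps, and in the diaphragm its ratio of 2.20 had an interval of 0.730 to 10.9. Dendritic-like cells had more Top2a than macrophage-like cells in each library, 98, 68.4, 138 and 89.3 CPM, against 20.5 and 27.9 CPM in the monocyte-like cells of the dystrophic diaphragm and quadriceps.

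Genes of the cycle outside the 40 were taken as 4 lists. Their counts are to be read against the share of all genes called higher, which was 18% and 14.7% in FAP-like and 21.3% and 13.7% in MuSC-like cells of quadriceps and diaphragm, and lower, 14.6%, 11.8%, 10.4% and 6.40%. Of 24 other mitotic genes (among them Stmn1, Hmgb2 and Tubb4b) 20 were called higher and 1 lower in FAP-like quadriceps, 8 and 2 in FAP-like diaphragm, and in MuSC-like cells 21 and 12 were called higher in quadriceps and diaphragm and 1 lower in each. Stmn1, which destabilises microtubules, measured 11.5, 21.6, 85.2 and 23.7 CPM in FAP-like cells. Other replication genes (20) were called higher in 13 cases in FAP-like quadriceps, 5 in diaphragm, and 10 and 8 in MuSC-like cells, with none lower in those 4 comparisons. The G1 cyclins, kinases and E2F genes (15) gave 6 higher and 1 lower in FAP-like quadriceps and 3 and 2 in diaphragm, the diaphragm counts being near the share of all genes. Ccnd2, the main D-type cyclin of FAP-like cells, hardly varied, at 179, 158, 180 and 157 CPM. For Cdk4, partner of the D-type cyclins, the MuSC-like ratios were 2.39 (1.85 to 3.13) and 3.54 (2.24 to 5.92).

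The inhibitors and brakes of the cycle were split in MuSC-like cells. Of 13 genes 5 were called lower and 5 higher in quadriceps and 6 lower and 3 higher in diaphragm. In FAP-like cells 2 of the 12 with enough UMIs were called higher and 1 lower in quadriceps, and 2 and 4 in diaphragm, of which the counts higher are near the share of all genes. Cdkn1a, the p21 inhibitor, was among the higher ones in MuSC-like quadriceps, at 40.2 CPM in WT and 299 in mdx5cv (7.45, 4.92 to 11.8), and among the lower ones in diaphragm, at 173 and 91.4. Gas1, a growth arrest gene, was lower in both, at 1167 and 945 CPM in WT quadriceps and diaphragm and at 265 and 259 in mdx5cv. Btg2, an antiproliferative gene that also responds to tissue dissociation, was lower in both too, at 924 and 2046 in WT and at 209 and 229 in mdx5cv. In FAP-like sums Cdkn1a was called lower in both muscles, with ratios of 0.520 (0.451 to 0.599) and 0.423 (0.398 to 0.450). Btg2 was called lower in diaphragm at 0.252 (0.241 to 0.263) and not in quadriceps at 0.796. Btg1 was called higher in quadriceps at 2.02 (1.80 to 2.29) and not in diaphragm at 1.29. Gas1 did not differ by 1.5-fold in either muscle (1.04 and 1.08), yet Gas1 differed between cells. In mdx5cv quadriceps the 158 cells with the module had 365 CPM of it and the 1003 with at most 1 module UMI had 882. In diaphragm the levels were 615 and 1769.

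The same split of FAP-like cells by module UMIs was also read in genes outside the module. Of the 24 other mitotic genes 23 were higher in the cells with 5 or more module UMIs in each dystrophic library, against 13.9% of 12789 genes in quadriceps and 10.5% of 13118 in diaphragm. Of the 20 other replication genes 20 and 19 were. Stmn1 stood at 296 against 6.48 CPM in quadriceps and at 197 against 7.61 in diaphragm. Pttg1, the securin gene, was the exception in both, at 47.6 against 68.1 and at 68.4 against 97.6. Ccnd1, the cyclin of growth factor responses, was 4.0-fold (3.04 to 5.32) and 7.12-fold (4.77 to 10.6) higher in the cells with the module. The 2 sets of cells differ in depth and in macrophage markers as given above, and the part of either in these ratios was not tested.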

How the data were processed

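Per the labels, cryopreserved mononuclear cells were sequenced with a droplet 3′ UMI kit. The authors deposited unfiltered UMI counts per gene and barcode; per the submitters' processing notes these come from Cell Ranger 5.0.0 on mm10, while the file headers name Cell Ranger 4. Barcodes with at least 1000 UMIs, 500 genes and at most 15% mitochondrial UMIs were kept. A class needed 3 of its markers and 25% of the marker level of its reference cells (the median over cells holding most of the markers). This level, and the precedence of mesothelial over FAP markers, were chosen after a gate without them, and the module counts, had been seen. Barcodes passing gates of 2 lineages were set apart, and the FAP-like gate takes in tenocytes. Plasma and mast gates held no cell. Doublet scores came from Scrublet in scanpy 1.11.5. The members and lists were chosen with earlier results of these data known. Named genes were those with most UMIs over all cells: 6 S phase, 3 other replication and 12 mitotic members, which include Mki67, Top2a, Pcna and Cdk1, and 4 genes per other list; Mcm2, Mcm4, Mcm5, Rrm2, Cdc6 and Cks2 were named after their values were seen. Shares have Clopper-Pearson 95% intervals and ratios exact conditional ones, computed with scipy 1.17.1; a count of 0 was set to 3 UMIs. The ratio rule was tested on simulated counts. Alternatives were other thresholds, gates and limits, thinning to 2000 UMIs, doublet handling and, for the scaling, TMM (edgeR 4.0.16) and median-of-ratios factors; the gate levels of 10% and 50% and the FAP-like cells with 0 macrophage marker UMIs were added after seeing the data. UMIs within 1 cell are not independent, and intervals cover counting error only.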

Additional observations from a re-analysis of the deposited data

Results flagged for a closer look

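Barcodes of 10 to 100 UMIs hold free RNA and belong to no comparison. The module took 9.36 of 10000 UMIs in them in mdx5cv quadriceps, from 892 module UMIs, against 3.60 in WT quadriceps, from 324. In mdx5cv diaphragm it took 5.56, from 640 UMIs, against 3.12 in WT diaphragm, from 312. The signal outside cells was thus above that of the WT library of the same muscle in both cases.

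In 4 cases a gene was called higher in 1 muscle and lower in the other within a class; the difference between muscles was not tested. In macrophage-like cells the log2 ratio, mdx5cv to WT, of Birc5 was 1.63 in quadriceps and -0.91 in diaphragm, that of Hmgb2 0.72 and -0.61, and that of Cks2 1.20 and -0.68. After thinning to 2000 UMIs the diaphragm value of Birc5 was -0.07, and its 17 UMIs in WT diaphragm came from 2 cells. In MuSC-like cells Cdkn1a, the p21 inhibitor, had 2.90 in quadriceps and -0.92 in diaphragm.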

How the results depend on the processing

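No paired analysis was possible because each group has 1 library. No share ratio changed direction under the alternatives, which held no split by depth range. Of 190 alternative values of the shares, S phase parts and counts, 150 stayed within the counting interval or, for counts, within 1.5 times. From 4000 to 8000 UMIs macrophage-like and MuSC-like shares were higher in WT in both muscles, with 5 to 55 WT cells per group. FAP-like shares in that range, and macrophage-like shares from 2000 to 4000 UMIs, were higher in mdx5cv. Counting cells from 3 module UMIs lowered the FAP-like ratio of shares to 6.85 in quadriceps and 1.83 in diaphragm. After thinning to 2000 UMIs with a threshold of 2, the ratios were 2.07 and 1.28 in FAP-like cells, 1.46 in macrophage-like and 3.11 in MuSC-like cells of quadriceps. With the threshold of 5 after thinning they were 2.80 in FAP-like diaphragm and at least 5.18 in MuSC-like quadriceps. A mitochondrial limit of 5% left 0 WT cells with the module among MuSC-like cells, with ratios of at least 3.14 in quadriceps and 1.51 in diaphragm. The S phase part in mdx5cv quadriceps and diaphragm, taken over all cells of the class, was 38.0% and 64.6% in FAP-like, 43.8% and 58.2% in macrophage-like and 29.5% and 35.3% in MuSC-like cells. With the other replication members added it was 37.2% and 46.6%, 44.6% and 56.0%, and 33.8% and 39.6%. Thinning gave 24.2% and 44.6% in FAP-like cells, 40.6% in macrophage-like quadriceps and 36.7% in MuSC-like diaphragm, and keeping barcodes of 2 lineages 31.1% in FAP-like and 25.5% in MuSC-like quadriceps. Thinning, which leaves fewer UMIs, lowered the members called higher in quadriceps and diaphragm to 21 and 6 in FAP-like, 4 and 0 in macrophage-like and 17 and 7 in MuSC-like cells. In FAP-like diaphragm 26 were called with barcodes of 2 lineages kept and 7 with the highest Scrublet scores removed; the cause was not tested. With TMM factors 2 CDK inhibitors and 0 other mitotic genes were called higher in macrophage-like diaphragm, against 4 and 1 without them. In MuSC-like diaphragm 3 G1 genes and 5 other replication genes were, against 5 and 8. Without TMM factors 12.2% of all genes were called higher in macrophage-like and 13.7% in MuSC-like diaphragm. The share of all genes called was not counted under the alternatives. Rrm1 in FAP-like quadriceps had a log2 ratio of -0.17 after thinning, against 0.66. Among FAP-like cells with 0 macrophage marker UMIs 32 and 12 members were called, and gate levels of 10% and 50% gave share ratios of 19.4 and 26.8 in quadriceps and 3.83 and 5.30 in diaphragm. Few UMIs in the WT sums limit the ratios of low members, as the 97 mitotic UMIs of WT quadriceps FAP-like cells.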

Other observations

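Cells that passed no class gate carried the module in 19 of 390 (4.87%) in WT quadriceps, 10 of 174 (5.75%) in WT diaphragm, 186 of 766 (24.3%) in mdx5cv quadriceps and 70 of 434 (16.1%) in mdx5cv diaphragm. These shares lie above the WT and dystrophic shares of FAP-like cells, so that leaving out unassigned cells removes cells with the module more often than others.

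Among ILC2-like cells 1 of 184 (0.543%) reached 5 module UMIs in WT diaphragm and 6 of 103 (5.83%, 2.17 to 12.2%) in mdx5cv diaphragm. Those in mdx5cv were 2 of the 3 cells from 4000 to 8000 UMIs and 4 of the 5 deeper ones. WT diaphragm had 4 and 2 cells in these ranges, 0 with the module, and the part of depth was not tested. Mesothelial-like cells were found in the diaphragm libraries only, with 2 of 98 and 2 of 53 carrying the module in WT and mdx5cv. FAP-like cells with at least 3 tenocyte markers carried it in 23 of 180 (12.8%, 8.28 to 18.6%) in mdx5cv quadriceps and 13 of 163 (7.98%, 4.31 to 13.3%) in mdx5cv diaphragm, against 1 of 91 and 3 of 195 in WT. Their median depths were 7064.5 and 7242 UMIs in mdx5cv against 3391 and 4595 in WT, and the part of depth was not tested.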
